A study of Mus musculus with 29 samples.

Results

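The regions described here are 928 ChIP-seq peaks of OCT4-HA co-expressed with SOX2-YPet that lay on peaks of 1 of the 2 BHLHB8-HA replicates. They were selected on 3 peak lists of NIH-3T3 cells, a mouse fibroblast line. A peak of the co-expression list (labelled SOX2-YPET OCT4-HA) was chosen if BHLHB8-HA replicate 2 had a peak covering 1 bp or more of it and replicate 1 had no such peak. A block of chromosome 5 from 3 to 11 Mb was left out; it held 753 of the 5146 co-expression peaks. The 928 peaks were 21.1% (95% exact interval 19.9 to 22.4) of the 4393 co-expression peaks outside this block. Of the others, 3237 overlapped neither BHLHB8-HA list and served as the comparison peaks, 193 overlapped both lists and 35 overlapped replicate 1 only. The overlap itself was the selection rule, so these counts are a description and no test was made of them.

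The series holds 28 peak lists from 24 constructs, each a transcription factor with 3 HA tags at its C-terminus, and 1 input sample that was not used here. All cells carried the rtTA3G activator and received their transgenes on doxycycline-inducible lentiviral vectors. The transgenes were induced overnight with 500 ng/ml doxycycline, and chromatin was fixed with 1% formaldehyde and precipitated with an anti-HA antibody. In the co-expression cells the HA tag was on OCT4, while SOX2 carried the fluorescent protein YPet, so the peaks are those of OCT4-HA. BHLHB8-HA was expressed alone, in 2 samples named as replicates, and had 46842 peaks in replicate 1 and 61991 in replicate 2. Each sample is a lentivirally transduced cell population with forced expression, in a cell line rather than a tissue. All lists were filtered against the same input peaks, so they share that control. With 1 co-expression list, no comparison between libraries could be tested, and p-values below treat peaks as the units. Peaks that lie close together are not independent, and 116 of the 928 peaks (12.5%) were within 10 kb of another of them.

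BHLHB8, also called MIST1 or BHLHA15, is a basic helix-loop-helix factor known for driving the secretory program of pancreatic acinar and other gland cells. Factors of this family bind DNA as dimers at E-boxes, short sequences of the form CANNTG, and BHLHB8 is known to prefer those with GC or TA in the centre. OCT4 (Pou5f1) is a POU factor of pluripotent cells that binds the octamer, and SOX2 is an HMG-box factor that can bind next to it.

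The 6 sequences printed here were chosen to give the range of the regions, each the central 200 bp of a peak on the plus strand of GRCm38. Capitals mark the GC-centred E-box CAGCTG and the GC box GGGCGG, on either strand. The peak at Prl2c3 lies in the promoter of this proliferin gene (chr13:12799042-12799241) and belongs to the gene cluster with most of the regions. Another is the CpG-dense promoter of the zinc finger gene Zfp518a (chr19:40894502-40894701), shown for its GC content of 73.5%. A pair are the centres of the widest regions more than 10 kb from any gene start once sites with peaks of 10 or more constructs were set aside, near Mucl1 (chr15:103823608-103823807) and near Khdrbs2 (chr1:31792707-31792906, all of it annotated as repeat). The peak near Tmem114 (chr16:8291635-8291834) held the most CAGCTG, with 3 copies. The last lies in an intron of Cog6 (chr3:52990136-52990335) and held 2 copies.
Prl2c3: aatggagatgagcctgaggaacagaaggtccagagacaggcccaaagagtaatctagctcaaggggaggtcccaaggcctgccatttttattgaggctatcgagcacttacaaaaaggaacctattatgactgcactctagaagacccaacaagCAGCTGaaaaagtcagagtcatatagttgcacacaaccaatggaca
Zfp518a: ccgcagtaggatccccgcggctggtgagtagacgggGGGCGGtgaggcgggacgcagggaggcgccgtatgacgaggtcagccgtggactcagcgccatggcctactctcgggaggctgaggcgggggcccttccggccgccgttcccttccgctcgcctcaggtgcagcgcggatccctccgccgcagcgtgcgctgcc
Mucl1: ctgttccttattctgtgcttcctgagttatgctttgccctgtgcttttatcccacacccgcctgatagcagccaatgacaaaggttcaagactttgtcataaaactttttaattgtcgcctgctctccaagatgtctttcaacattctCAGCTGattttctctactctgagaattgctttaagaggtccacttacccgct
Khdrbs2: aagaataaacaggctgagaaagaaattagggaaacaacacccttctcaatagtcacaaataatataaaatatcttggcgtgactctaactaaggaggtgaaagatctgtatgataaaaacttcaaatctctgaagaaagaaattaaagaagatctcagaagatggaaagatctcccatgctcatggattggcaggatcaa
Tmem114: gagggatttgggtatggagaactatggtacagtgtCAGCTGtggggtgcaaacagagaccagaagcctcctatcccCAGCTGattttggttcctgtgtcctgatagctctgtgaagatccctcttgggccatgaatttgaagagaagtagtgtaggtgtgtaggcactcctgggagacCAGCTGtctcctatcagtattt
Cog6: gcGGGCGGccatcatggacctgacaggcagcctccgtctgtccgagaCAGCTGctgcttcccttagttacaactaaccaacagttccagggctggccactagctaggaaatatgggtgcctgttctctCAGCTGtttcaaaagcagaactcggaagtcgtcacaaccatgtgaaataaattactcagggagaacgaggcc

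The 928 regions were wider than the comparison peaks, with a median width of 358 bp against 313 bp. They shared a median of 269 bp with the replicate 2 peak, or 80.0% of their own width, and the midpoints of the overlapping peaks were a median of 82 bp apart. Wider peaks overlap others more easily, so width and overlap are given as a description. At the edge of the rule, the regions with the least overlap shared 1 bp (near Med30), 4 bp (near Gstt4) and 8 bp (near Pi15) with replicate 2. The closest comparison peaks stopped 2 bp (near Defb41), 3 bp (near Btbd11) and 4 bp (near Kcnv1) short of a replicate 2 peak. Under 50 bp were shared by 30 of the 928 regions, and 59 of the 3237 comparison peaks lay under 200 bp from a replicate 2 peak.

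Promoters were more frequent among the regions than among comparison peaks, although most peaks of both sets lay more than 10 kb from a start. Promoter peaks are those centred no further than 1 kb from where a protein-coding transcript begins. Of the 928 regions 76 were promoter peaks, or 8.19% (6.51 to 10.1), against 105 of 3237 comparison peaks, or 3.24% (2.66 to 3.91). The difference of 4.95 percentage points passed Fisher's exact test (two-sided, Benjamini-Hochberg adjusted over the 5 main shares, p = 3.30e-09). It fell to 2.35 percentage points (5.59% against 3.24%, adjusted p = 0.00737, exact test) when regions and replicate 2 peaks had to cover 50% of each other, and to 3.21 (6.37% against 3.16%) with the chromosome 5 block included. Within 10 kb of a start were 22.7% (20.1 to 25.6) of the regions and 15.7% (14.5 to 17.0) of the comparison peaks (adjusted p = 2.38e-06, exact test). Further than 100 kb from a start were 33.7% (30.7 to 36.9) and 41.5% (39.8 to 43.2; adjusted p = 3.53e-05, exact test). Peaks on both BHLHB8-HA lists had a higher promoter share than the regions, with 44 of 193 (22.8%).

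Among the remaining locations, 461 regions were intergenic, 292 intronic, 49 in coding exons and 50 in other exons. Coding exons held 5.28% of the regions and 3.18% of the comparison peaks (adjusted p = 0.0064 over the 5 location classes, exact test). Introns held fewer, 31.5% against 37.6% (adjusted p = 0.00162, exact test). The intergenic shares, 49.7% (46.4 to 52.9) and 51.5% (49.7 to 53.2), had overlapping intervals (adjusted p = 0.352), as had those of other exons, 5.39% and 4.54% (adjusted p = 0.352, exact test). Annotated repeats covered more than 50% of the central 200 bp in 33.7% (30.7 to 36.9) of the regions and 33.1% (31.4 to 34.7) of the comparison peaks (adjusted p = 0.837, exact test).

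**Figure D1:**
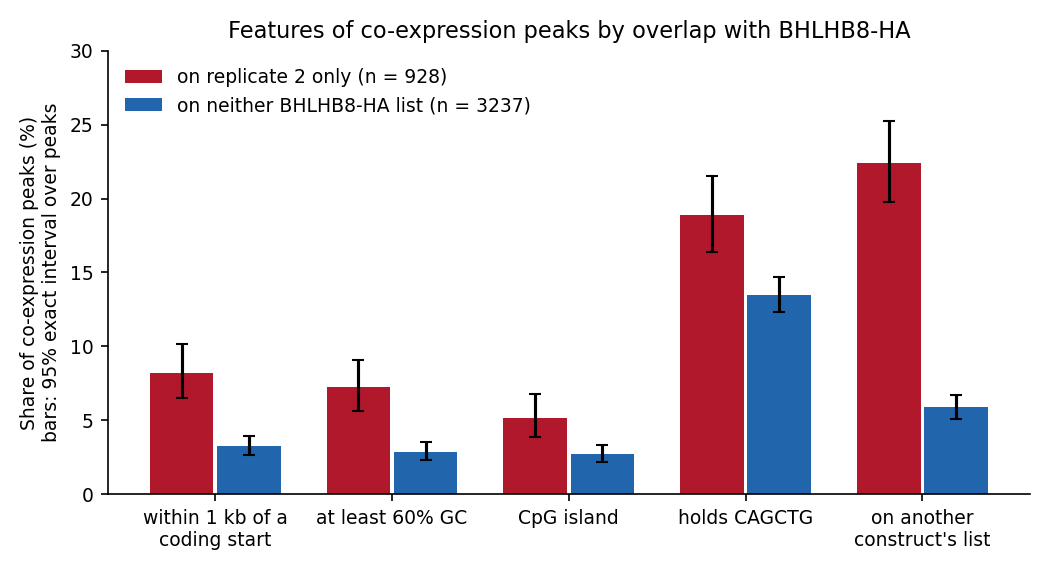
Share in percent (y axis) of co-expression peaks with each of 5 features (x axis), for peaks on BHLHB8-HA replicate 2 only (red, n = 928) and on neither BHLHB8-HA list (blue, n = 3237); error bars are 95% exact intervals over peaks. All 5 red bars are higher, from 5.17% against 2.69% for CpG islands to 22.4% against 5.87% for overlap with another construct's list.

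The promoter regions belonged to 74 genes. They included Rps13, a protein of the small ribosomal subunit, with a peak of 978 bp, the widest promoter peak outside sites of 10 or more constructs. Nabp2, which encodes a single-stranded DNA binding protein, followed with 931 bp, and Arpc1b, a subunit of the actin-nucleating Arp2/3 complex, with 915 bp. The next were 752 bp at Ugt1a1 and 722 bp at Dnajb3, both inside the Ugt1a locus, which encodes enzymes that glucuronidate bilirubin and drugs. The other wide promoter peaks were 696 bp at Gm7324, 676 bp at the olfactory receptor gene Olfr285, 666 bp at Prl2c3, 621 bp at BC049715 and 608 bp at Thap1, a zinc finger factor. Of the 76 promoter regions 31 met the CpG island criteria, a GC content of at least 50% and at least 0.6 of the CpG expected from base composition, and 29 had a GC content of at least 60%.

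At promoters the other construct found most often was TEAD1-HA. Of the 76 promoter regions 24 (31.6%) overlapped a peak of TEAD1-HA, a TEA domain factor known as the DNA-binding partner of YAP and TAZ. Among promoter peaks of the comparison set 11 of 105 (10.5%) did, and among those on both BHLHB8-HA lists 24 of 44 (54.5%). Outside promoters 8 of 852 regions (0.939%) were on the TEAD1-HA list. This set was noticed in the values, so the shares are a description without a test. Of these 24 promoters 22 were on no other list, their GC content ran from 50.0% to 80.0% with a median of 63.5%, and 18 met the CpG island criteria. The TEAD core CATTCC was in the central 200 bp of 0 of the 24, and CAGCTG was in 4.

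The most GC-rich of these promoters was that of Yes1, a kinase of the Src family, with 80.0% GC, where ZFP319-HA also had a peak. Chgb, a protein of secretory granules, had 76.0% and held a CAGCTG. Mplkip had 73.5%, and so had Zfp518a, whose centre is printed above. Apaf1, the scaffold of the apoptosome, had 72.5% and a CAGCTG, and one of the promoters of the histone demethylase Kdm2a had 72.5%. Others in this set were Stradb with 69.0%, the cytokine gene Mif with 67.0%, the kinase-like Trib2 with 65.5% and the glycolytic enzyme Pgam1 with 62.0%. Promoter regions off the TEAD1-HA list included Tnfrsf11b (osteoprotegerin) with 64.0% and Cltc, the clathrin heavy chain, with 52.0%.

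The regions were slightly richer in G and C than the comparison peaks, and both sets were far richer than the sequence around them. The median GC content of the central 200 bp was 52.0% in the regions, 50.0% in the comparison peaks and 40.5% in control windows of the same size 5 kb away that touched no peak of any list. The quartiles were 49.0% and 55% for the regions and 47.5% and 53.5% for the comparison peaks. At least 60% GC was found in 67 regions, or 7.22% (5.64 to 9.08), and in 93 comparison peaks, or 2.87% (2.33 to 3.51; adjusted p = 2.77e-08, Fisher's exact test). Below 45% GC were 5.28% (3.93 to 6.92) of the regions and 10.7% (9.62 to 11.8) of the comparison peaks (adjusted p = 7.66e-07, exact test). CpG islands by the criteria above were at 48 regions, 5.17% (3.84 to 6.80), and 87 comparison peaks, 2.69% (2.16 to 3.30; adjusted p = 0.000323, exact test). In 100 kb around the peaks the median GC content was 40.8% in both sets. Of the 193 peaks on both BHLHB8-HA lists 37 (19.2%) had at least 60% GC, a higher share than in the regions.

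**Figure D2:**
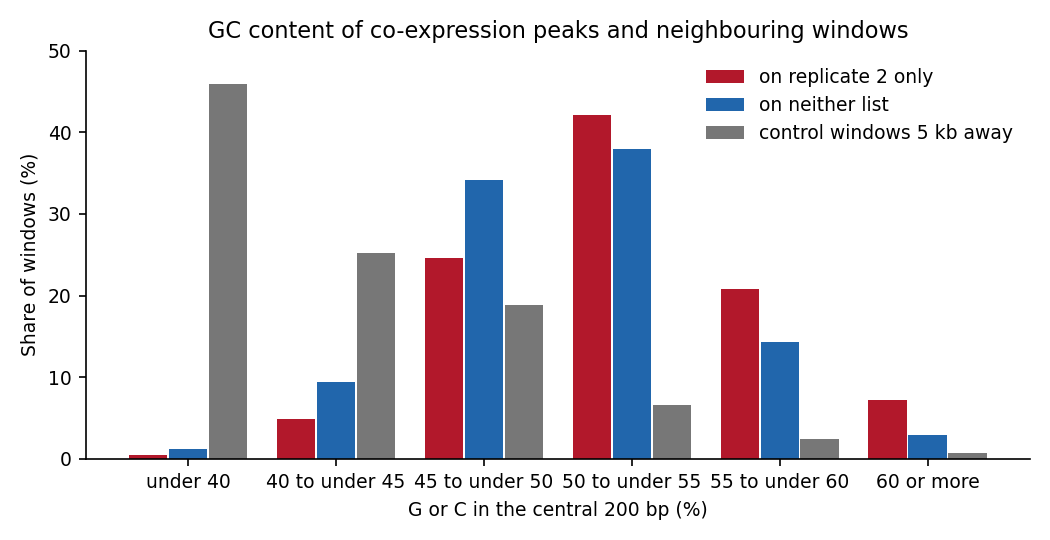
Share of windows in percent (y axis) by GC content of the central 200 bp (x axis), for co-expression peaks on BHLHB8-HA replicate 2 only (red), on neither list (blue) and for control windows 5 kb from the red peaks (grey). The class of 50 to under 55% is the most frequent in both peak sets, with 42.1% and 38%, while 45.9% of control windows are under 40%.

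GC content, promoters and overlap with other lists go together, so the shares were also compared within strata, with adjustment over 40 tests. Some of the 40, such as the promoter share within promoter peaks, were fixed by the stratum itself and tested nothing. Outside promoters at least 60% GC was found in 4.46% of the regions and 2.46% of the comparison peaks (adjusted p = 0.00762, exact test), while CpG islands were at 2.00% and 1.98% (p = 1.00). Among peaks of 55% GC or more, promoters made up 16.5% of the regions and 6.82% of the comparison peaks (adjusted p = 0.000174, exact test). Under 50% GC they made up 5.05% and 1.93% (adjusted p = 0.00832, exact test). From 50 to under 55% GC, the class with most regions, the shares were 4.86% and 3.17% and were not called (adjusted p = 0.16, exact test). Promoters were also more frequent in the regions within each of 3 width classes. The shares were 8.08% against 3.72% under 300 bp (adjusted p = 0.0083), 9.69% against 2.96% from 300 to under 400 bp (adjusted p = 1.02e-05) and 6.90% against 2.79% from 400 bp (adjusted p = 0.00642, exact test).

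The GC-centred E-box was more frequent in the regions than in comparison peaks. It was less frequent than in the replicate 2 peaks without a replicate 1 partner that lay off the co-expression list, given below. The windows of those peaks were centred on the BHLHB8-HA peak and not on a co-expression peak. CAGCTG was in the central 200 bp of 175 regions, 18.9% (16.4 to 21.5), and of 436 comparison peaks, 13.5% (12.3 to 14.7; adjusted p = 7.78e-05, Fisher's exact test). The control windows held it in 5.89% and 5.80%, and 40 of the 193 peaks on both BHLHB8-HA lists (20.7%) held it. These windows were not matched for GC content, whose median was 40.5% in those of the regions and 52.0% in the regions. Of the 175 regions 168 held 1 copy, 6 held 2 and 1 held 3. Outside promoters the shares were 19.6% and 13.3% (adjusted p = 4.60e-05), and at promoters 10.5% and 17.1% (adjusted p = 0.366, exact test). Within GC classes the difference was called only from 50 to under 55% GC, with 20.7% and 13.2% (adjusted p = 0.00149, exact test). Under 50% GC the shares were 16.6% and 13.0% (adjusted p = 0.149), and from 55% GC 18.5% and 15.4% (adjusted p = 0.38, exact test). At widths from 300 to under 400 bp they were 16.25% and 12.8% (adjusted p = 0.16, exact test), while narrower and wider peaks were called. The TA-centred form CATATG was in 4.42% of the regions, 4.48% of the comparison peaks and 6.71% of the control windows.

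Over all 17 sequences searched on both strands, 3 were more frequent in the regions and 0 less frequent, with p-values adjusted over the 17 by Fisher's exact test. They were CAGCTG, any E-box CANNTG, which includes it, with 73.9% against 69.2% (adjusted p = 0.0317), and the GC box GGGCGG with 6.03% against 3.27% (adjusted p = 0.00276, exact test). The controls of the regions held CANNTG in 67.5% and GGGCGG in 1.65%. The most frequent E-box form in the regions was CACCTG with 26.4%, followed by CAGATG with 23.2%; the comparison peaks had 21.0% and 18.2%. The control windows were poorer in G and C than the peaks, and the part of composition in differences from them was not tested. The OCT4 octamer was in 1.29% of the regions, 1.27% of the comparison peaks and 3.30% of the control windows. The SOX core, ACAANG with A or T at N, was in 18.97% of the regions, 22.8% of the comparison peaks (adjusted p = 0.0554, exact test) and 28.7% of the control windows. It was called less frequent in the regions under some alternatives given at the end, such as autosomes only. CACGTG, the E-box bound by MAX and MYC, was in 2.59% and 3.00%.

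Seen from the BHLHB8-HA side, 900 of 36695 replicate 2 peaks without a partner in replicate 1 lay on the co-expression list (2.45%). Of the replicate 2 peaks with such a partner 222 of 24152 did (0.919%). The 900 differed from the other 35795 peaks without a partner. CAGCTG was in 22.2% (19.5 to 25.1) of the 900 and 34.1% (33.6 to 34.6) of the others (adjusted p = 6.03e-14 over 11 features, Fisher's exact test). CATATG was in 5.33% and 10.3% (adjusted p = 4.93e-07, exact test). Promoters were fewer, 6.67% (5.13 to 8.50) against 11.8% (11.5 to 12.1; adjusted p = 1.16e-06, exact test), which is the opposite direction to the comparison within the co-expression list. Repeats covered more than 50% of the window in 32.4% (29.4 to 35.6) against 11.4% (11.1 to 11.8; adjusted p = 9.98e-60, exact test). Further than 100 kb from a coding start were 33.7% against 18.5% (adjusted p = 1.11e-25, exact test). Around the centres of the other 35795 peaks CAGCTG rose to 114 per 1000 peaks in the central 50 bp bins, from 30.03 at the edge. The 900 reached 66.7 per 1000 peaks. Centred on the co-expression peak, the 928 regions had 48.5 to 57.1 per 1000 peaks in the 6 bins from 150 bp before to 150 bp after the centre. The highest count, 53, was reached in the bin just before the centre and again from 100 to 150 bp after it.

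**Figure D3:**
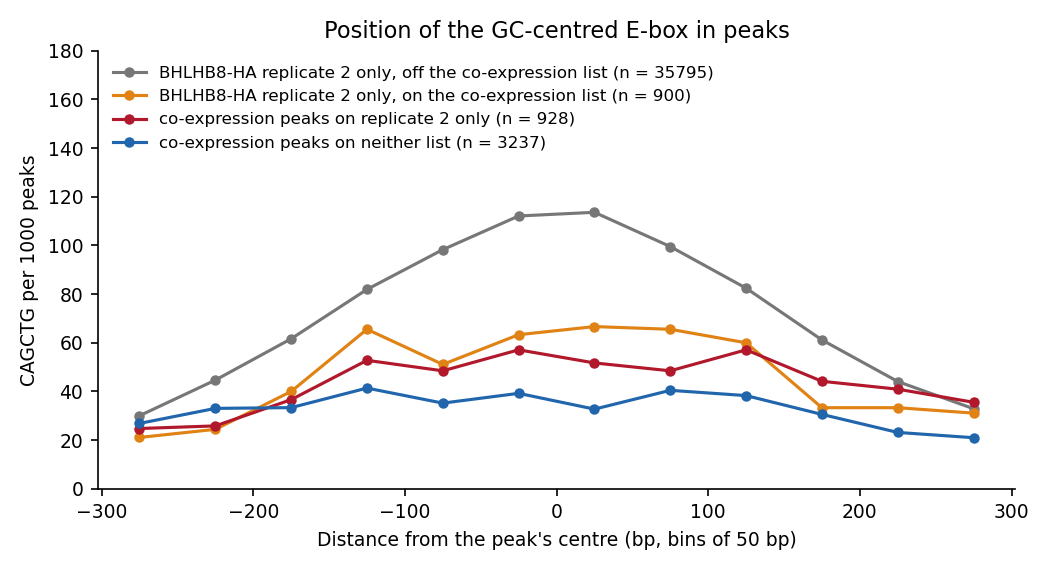
CAGCTG per 1000 peaks (y axis) in bins of 50 bp by distance from the peak's centre (x axis), for BHLHB8-HA replicate 2 peaks without a replicate 1 partner off (grey) and on (orange) the co-expression list, and for co-expression peaks on replicate 2 only (red) and on neither list (blue). The grey curve peaks at 114 in the centre, while the red curve stays between 24.8 and 57.1.

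Of the 5 main shares, overlap with the other constructs had the largest difference between regions and comparison peaks. At least 1 of the 25 lists other than those of BHLHB8-HA and the co-expression had a peak on 208 of the 928 regions, 22.4% (19.8 to 25.2), and on 190 of the 3237 comparison peaks, 5.87% (5.08 to 6.74; adjusted p = 6.02e-43, Fisher's exact test). Peaks on both BHLHB8-HA lists were higher still, with 74.6% on another list. The rule kept these peaks out of the comparison set, so part of the difference was set by the selection. Against all other 3465 co-expression peaks the shares were 22.4% and 10.3% (adjusted p = 1.89e-19, exact test). The remaining 720 regions, 77.6%, were on none of the 25 lists. Exactly 1 further list held 100 of the regions, 2 to 4 lists held 58 and 5 or more held 50; of the comparison peaks 146 were on 1, 35 on 2 to 4 and 9 on 5 or more. The difference was seen in each width class, with 11.9% against 4.60% under 300 bp, 18.8% against 5.66% from 300 to under 400 bp and 33.6% against 8.80% from 400 bp.

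The 5 lists with most of the regions were RHOX11-HA, SIX6-HA, SOX15-HA, HLF-HA and FOXA1-HA replicate 2. RHOX11, a homeodomain protein of the reproductive homeobox cluster, was on 98 regions, 10.6% (8.66 to 12.7), and on 1.48% of the comparison peaks. SIX6, a homeodomain factor of the developing eye, was on 96, 10.3% against 1.51%. SOX15, an HMG-box factor related to SOX2, was on 68, 7.33% against 0.927%, and HLF, a PAR basic leucine zipper factor, on 66, 7.11% against 0.587%. All 25 lists covered a higher share of the regions than of the comparison peaks at an adjusted p under 0.05 over the 25 lists, by Fisher's exact test. The selection favoured this count, because every peak on a BHLHB8-HA list was left out of the comparison set. The smallest called difference was that of THAP4-HA, on 3 regions and 1 comparison peak. Against all other 3465 co-expression peaks, those on both lists included, 7 lists were called, with more of the regions in each. They were the 5 above, TOX3-HA and TEAD1-HA.

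**Figure D4:**
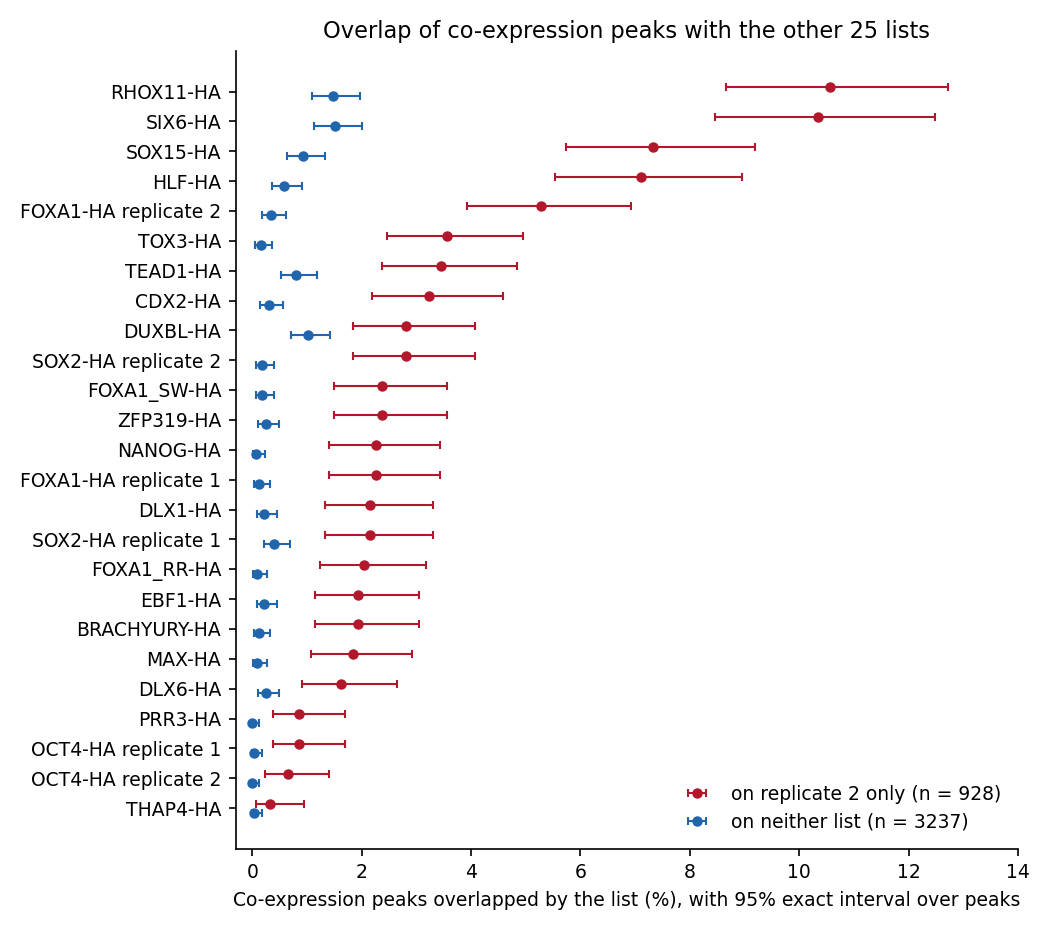
Share in percent (x axis) of co-expression peaks overlapped by each of the other 25 lists (y axis), for peaks on BHLHB8-HA replicate 2 only (red, n = 928) and on neither list (blue, n = 3237), with 95% exact intervals over peaks. Every red point lies to the right of its blue point, and RHOX11-HA and SIX6-HA are the farthest, at 10.6% and 10.3%.

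Part of this overlap lay at sites where 10 or more constructs had peaks, BHLHB8-HA and the co-expression construct counted. Such sites held 33 regions, 3.56% (2.46 to 4.96), against 4 comparison peaks, 0.124% (0.0337 to 0.316), and 67 of the 193 peaks on both lists (34.7%). The rule put BHLHB8-HA on every region and on no comparison peak, so this contrast was partly set by the selection. With these sites left out 15 of the 25 lists were still called. They included RHOX11-HA on 67 of 895 regions (7.49% against 1.36%, adjusted p = 1.01e-17) and SIX6-HA on 66 (7.37% against 1.42%, adjusted p = 5.66e-17, exact test). Counted over the whole merged site, the regions with most constructs were a peak of 1916 bp on a coding exon of the ribosomal protein gene Rpl7a (chr2:26911091-26913006), with 21 constructs, and a peak of 2041 bp (chr6:3133004-3135044) whose nearest gene start, that of Samd9l, was 250982 bp away, with 19. They were followed by regions near Adam29 (chr8:55519192-55519860) with 19, and by those near Fam174a (chr1:95451923-95452224) and in an intron of Adk (chr14:21311947-21312270) with 17 each.

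Outside these sites the lists fell on partly the same regions. RHOX11-HA and SIX6-HA shared 31, which is 46.3% of the 67 and 47.0% of the 66. Of the 36 regions on HLF-HA 21 (58.3%) were also on RHOX11-HA, and of the 27 on FOXA1-HA replicate 2 17 (63.0%) were on SOX15-HA. TEAD1-HA shared 0 of its 27 with RHOX11-HA, SOX15-HA, HLF-HA or FOXA1-HA replicate 2, and 2 with SIX6-HA. The regions on these lists also differed in location. Of the 98 on RHOX11-HA 3 (3.06%) were promoters and their median GC content was 50.0%, whereas of the 32 on TEAD1-HA 24 (75%) were promoters and the median was 61.5%. These values describe lists picked for their size and carry no test.

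The lists of the other constructs with duplicates also held unequal shares of peaks on the regions, given here as a description because each replicate is a single list. FOXA1 is a forkhead factor known to open chromatin in endoderm. Its replicate 2 had 50 of 1099 peaks on the regions (4.55%) and replicate 1 had 22 of 6033 (0.365%). The same contrast was seen on the comparison peaks, with 11 peaks of replicate 2 (1.00%) and 4 of replicate 1 (0.0663%), so it was not particular to the regions. SOX2-HA replicate 2 had 27 of 5692 on the regions (0.474%) and replicate 1 had 20 of 25049 (0.0798%), while on the comparison peaks they had 6 (0.105%) and 13 (0.0519%). In both constructs the list with the higher share was the shorter one. OCT4-HA alone had 7 of 95 peaks of replicate 1 and 6 of 52 of replicate 2 on the regions (7.37% and 11.5%), and 1 and 0 on the comparison peaks. The part of library depth in these shares was not tested.

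The regions were spread over all 21 chromosomes, with the largest numbers on chromosomes 1, 15 and 16. Chromosome 1 held 216, chromosome 15 held 146 and chromosome 16 held 79, together 47.5% of the regions and 41.3% of the comparison peaks. Co-expression peaks numbered 61.6 per 10 Mb on chromosome 15, 49.5 on chromosome 1 and 46.4 on chromosome 19, against 3.44 on chromosome 14. The share of a chromosome's co-expression peaks that were among the regions was highest on chromosome 13, 36.5% (26.9 to 46.9), and chromosome 16, 34.8% (28.6 to 41.4). It was 14.4% (10.9 to 18.6) on chromosome 2 and 10.98% (6.74 to 16.6) on chromosome 6, and the median over chromosomes with 20 or more co-expression peaks was 21.1%. These shares use the selection itself and are a description.

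**Figure D5:**
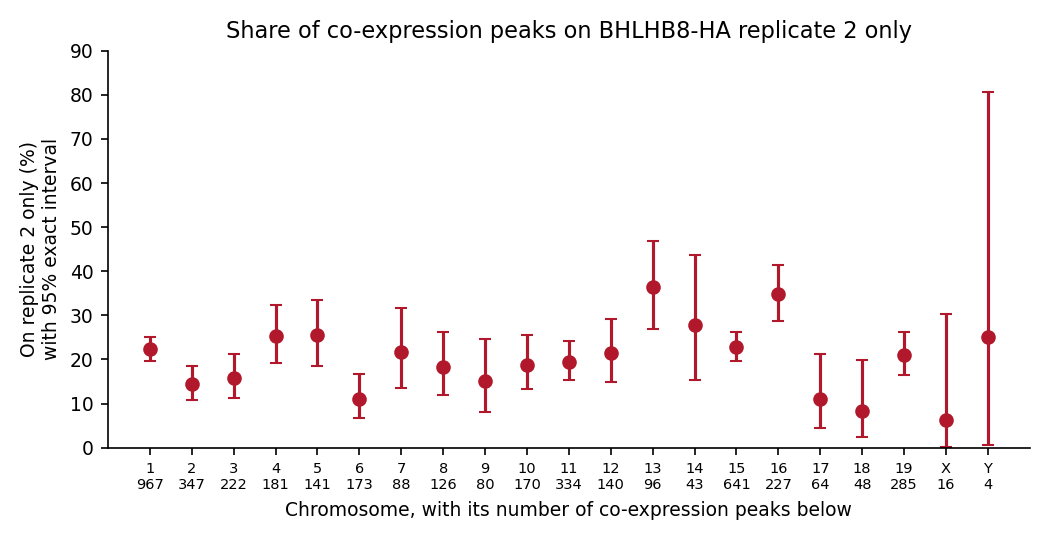
Share in percent (y axis) of each chromosome's co-expression peaks that lay on BHLHB8-HA replicate 2 only, with 95% exact intervals over peaks; the x axis gives the chromosome and its number of co-expression peaks outside the left-out block. Chromosomes 13 and 16 are the highest among those with 20 or more peaks, at 36.5% and 34.8%, and the intervals of X and Y are wide because they rest on 16 and 4 peaks.

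The densest cluster lay at the proliferin genes on chromosome 13. Proliferins (Prl2c2 and Prl2c3) are hormones of the prolactin family made by the placenta and by growing mouse fibroblast lines. Of the 928 regions 19 were nearest to the start of Prl2c3 (12 regions, ENSMUSG00000056457.6) or Prl2c2 (7 regions, ENSMUSG00000079092.4), against 2 comparison peaks. They ran from position 12769673 to 12938861 of chromosome 13 and were 325 to 948 bp wide, with a median GC content of 49.0%. One was the Prl2c3 promoter printed above, and most of the others were intergenic. RHOX11-HA had peaks on 12 of the 19, HLF-HA on 6, SIX6-HA on 4, SOX15-HA on 2 and TEAD1-HA on 0, and 5 were on no other list. CAGCTG was in the centre of 6, and repeats covered more than 50% of the centre of 11. With peaks nearest to these genes left out, overlap with another construct was still 21.3% in the regions and 5.84% in the comparison peaks (adjusted p = 2.52e-38, Fisher's exact test).

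A longer stretch on chromosome 16 from 15 to 20 Mb held 42 regions and 46 comparison peaks. Here 36 of the 42 were on none of the other 25 lists, 27 had centres covered by repeats for more than 50%, and 3 were promoters. They included 5 nearest to Spidr, a gene of homologous recombination, 5 nearest to Gm21897, 4 nearest to Ube2v2, a variant of the ubiquitin-conjugating enzymes, and 3 each at Spag6l and at Iglc2, an immunoglobulin light chain constant gene. Over all bins of 5 Mb with 20 or more co-expression peaks, 61 in number, the share of regions ran from 3.70% to 76.0% with a median of 24.6%. The highest was the bin of the proliferin genes, with 19 of 25 peaks.

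The regions were nearest to 646 genes, of which 500 had 1 region and 63 had 3 or more. After Prl2c3, most lay nearest to Cdh9, a cadherin, and to the olfactory receptor gene Olfr161, with 10 each, Zfp386 with 8, and Prl2c2, Cntnap5a and Serpinb8 with 7 each. Many of these were far from the gene: at Cdh9 the regions spanned 1973 kb and the nearest was 261379 bp from the start. Csmd3 had 6. B3galt2, Gm21897, Gm5592, Has2, which makes hyaluronan, Phlpp1, Rbfox1, Sdc2 and Spidr had 5 each, and Myc had 4, of which the nearest was 195240 bp away. Several genes with 3 or more, Prl2c2 and Prl2c3 included, belong to families with close copies in the genome. Among them were Speer4d, H60b and Raet1e, which encode ligands of an activating receptor of natural killer cells, Ighv6-5, Vmn1r3, Tdpoz3 and Zfp985. At such copies uniquely aligned reads are fewer, and the assignment of a peak to one copy is less certain. Thap1 differed in that its 3 regions lay within 4.00 kb, from 846 to 4054 bp from its start, with 0 comparison peaks.

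Few genes of any kind, those of the factors' known programs included, had a region close by. Of 21829 protein-coding genes 229 had a region within 10 kb of a start, 1.05%, and 548 had a comparison peak there, 2.51%. In the list of 27 pluripotency genes 0 had a region, while Pou5f1 and Sox2 had a comparison peak. These are the genes of the OCT4 and SOX2 transgenes carried by the co-expression cells. Reads from a transgene and from the gene itself cannot be told apart in these peak positions. Of 22 secretory-cell genes associated with BHLHB8 1 had a region (4.55%). It was Dnajb9, a chaperone of the endoplasmic reticulum, whose region (chr12:44218131-44218396) was 266 bp wide, lay 7938 bp from the start, and held no CAGCTG. Of 25 fibroblast genes 0 had a region, and Fap and Vim had a comparison peak. In lists of this length a share of 1.05% is less than 1 gene, so the counts of 0 and 1 do not set these lists apart from other genes.

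Among the 19 other gene lists 14 had 0 or 1 gene with a region within 10 kb of a start. Cytosolic ribosomal proteins had 4 of 79 (5.06%), against 5 of 79 with a comparison peak: Rpl7a, Rps13, Rpl19 and Rps9, with peaks of 1916, 978, 903 and 255 bp. Wnt ligands, receptors and inhibitors had 2 of 54 (3.70%): Rspo2, an enhancer of Wnt signalling, with a peak 829 bp from its start, and Sfrp4, a secreted Wnt inhibitor, 3422 bp away at the promoter of Epdr1. Solute carriers had 5 of 334 (1.50%), with regions at the promoters of Slc7a14, Slc30a4, a zinc transporter, and Slc40a1, the iron exporter. Zinc finger genes named Zfp had 3 of 394 (0.761%) and olfactory receptors 9 of 1091 (0.825%), both near the 1.05% over all genes. With a comparison peak were 10 of the Zfp genes (2.54%) and 46 of the olfactory receptors (4.22%), against 2.51% over all genes. The Hox clusters had 1 of 39, Hoxc4, with a region 7506 bp from its start. Of 188 developmental transcription factor genes, 44 collagens, 42 integrins and laminins and 58 genes of TGF-beta, activin and BMP signalling 0 had one.

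More than 10 kb from any start, the widest region outside sites of 10 or more constructs was 1164 bp near Mucl1 (chr15:103823126-103824289, 68239 bp from the start, on 6 other lists). The next was 1108 bp near Khdrbs2 (chr1:31792253-31793360, 379907 bp away, on 7 other lists and wholly repeat in its centre). Further ones were 1031 bp near Fcgr1 (chr3:96312456-96313486), on no other list, and 980 bp on a coding exon of Srfbp1, also on no other list. Of the 10 widest distal regions 3 lay nearest to Prl2c3, with 948, 914 and 840 bp. The others were 905 bp near Zfp386 within the immunoglobulin heavy chain locus, 876 bp in an intron of Ighv1-54 and 855 bp in an intron shared by Gm26740, H60b and Raet1e.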

How the data were processed

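ChIP-seq of HA-tagged factors in NIH-3T3 cells was deposited as 28 lists of peak positions. Per the submitters' notes and the study's methods, the authors aligned paired-end reads to mm10 (GRCm38) with STAR 2.5.3a, kept unique alignments, removed duplicates with Picard and called peaks in each sample separately with MACS2 2.1.1.20160309. Peaks found in input or in blacklisted regions were removed. The deposited files hold a chromosome, start and end per peak and no other value, such as a score, so depth is unknown.

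Groups and replicate numbers came from the labels. Peak positions were joined with the GRCm38.p6 sequence from RefSeq and the GENCODE vM21 annotation, and printed positions count from 1. Composition and the 17 sequences were read in the central 200 bp, with windows 5 kb away that touched no peak as controls. Touching peaks of different constructs were joined into sites. Differences in shares were tested by a two-sided Fisher's exact test with Benjamini-Hochberg adjustment within each family and a threshold of 0.05. Intervals are 95% exact (Clopper-Pearson) and cover counting error over peaks only. Scripts were tested on simulated data with planted differences.

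Named regions were the 10 widest promoter regions and the 10 widest beyond 10 kb outside sites of 10 or more constructs, the 5 with most constructs, genes with 3 or more regions, and genes of fixed lists. The promoters on the TEAD1-HA list and the sequences printed from them were picked once their values had been seen. The regions and lists were chosen with earlier results of these data known. Python 3.11.15, NumPy 2.4.6, pandas 2.3.3, SciPy 1.17.1, pysam 0.24.0 and Matplotlib 3.10.9 were used.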

Additional observations from a re-analysis of the deposited data

How the results depend on the processing

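The 5 main shares and the counts of lists and sequences were recomputed under 81 combinations of result and alternative. Of these 74 had the same sign and the same call, or a count within 1.5 times, and 0 reversed. With a reciprocal overlap of 50% with replicate 2 as the rule, 662 regions were left, the promoter difference fell from 4.95 to 2.35 percentage points (adjusted p = 0.00737) and that of CpG islands from 2.48 to 1.39 (adjusted p = 0.0577, Fisher's exact test). Other calls that held moved by over 1.5 times. The promoter difference was 3.21 points with the chromosome 5 block and 7.79 with starts of any biotype, and that of CpG islands was 1.62 against all other co-expression peaks. The difference was 10.8 points for a GC content of at least 55%, 10.04 for CAGCTG in whole peaks and 10.2 for overlap with another construct when 50% had to be reciprocal. The count of lists that differed fell from 25 to 7 against all other co-expression peaks and to 15 without sites of 10 or more constructs. The count of sequences that differed rose from 3 to 5 with the chromosome 5 block included and to 5 with whole peaks. It was also 5 without peaks nearest to Prl2c2 or Prl2c3, with 4 more frequent and 1 less frequent in the regions. That alternative was chosen after the data were seen. Without BHLHB8-HA replicate 2 the count was 1. The SOX core was called less frequent in the regions with the chromosome 5 block, on autosomes only and with 1 peak per 100 kb. The same was seen without sites of 10 or more constructs and without BHLHB8-HA replicate 1. The GC box was not called with the reciprocal rule or for peaks of at least 300 bp. CANNTG was not called with 1 peak per 100 kb or with either BHLHB8-HA list left out, and CAGCTG not without replicate 2. The cause of these changes was not tested.

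With either BHLHB8-HA list left out of the rule, so that the regions were all peaks on the other list, the differences ran from 7.47 to 15.4 percentage points for promoters and from 6.44 to 12.4 for at least 60% GC. They ran from 4.83 to 12.5 for CpG islands, from 5.61 to 6.38 for CAGCTG and from 24.9 to 64.1 for overlap with another construct. Both ways 25 lists differed, and 1 to 4 sequences. With each chromosome left out in turn, the promoter difference stayed between 4.55 and 5.55 percentage points and that of CAGCTG between 4.95 and 5.96. No paired analysis was possible because a single list stands for the co-expression cells and no result comes from a test across replicates. Depth is unknown, peaks close together are not independent, and a share over peaks carries no error between libraries.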

Other observations

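The excess of replicate 2 over replicate 1 of BHLHB8-HA was also counted on the other lists, outside the same block of chromosome 5. On 4 of 26 lists more peaks overlapped replicate 2 only than replicate 1 only. The co-expression list, on which the regions were chosen, had 928 against 35 peaks, a ratio of 26.5. TEAD1-HA had 1513 against 258 of 14850 peaks, a ratio of 5.86, FOXA1_SW-HA had 32 against 26 of 136 (1.23) and RHOX11-HA had 522 against 459 of 4068 (1.14). At the other end DLX6-HA had 381 against 6547 of 20793 peaks, a ratio of 0.0582. These are counts from 1 list for each construct or replicate, without a test.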
